A study of Homo sapiens with 6 samples.

Results

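The basement membrane genes followed here are 10 of the 58676 gene identifiers in the deposited count table, chosen by name as the collagen IV chains (*COL4A1* to *COL4A6*), the collagens XV and XVIII (*COL15A1*, *COL18A1*) and the nidogens (*NID1*, *NID2*). They were measured by RNA-Seq in MRC5 cells, an established line of human lung fibroblasts, after 24 h in conditioned media (CM) from ATII ER:KRASV12 cells, an alveolar epithelial type II line in which 4-hydroxytamoxifen (4-OHT) switches RAS signaling on. The CM came from epithelial cells without 4-OHT for 3 libraries (control ATII CM, the controls) and from 4-OHT-treated epithelial cells for the other 3 (4-OHT ATII CM). No TGF-β was added to either group, and the RNA is that of the fibroblasts, not of the epithelial cells. Each is a single cell line, and the labels do not say whether the libraries of a group came from separate cultures. Neither the labels nor the methods state how long the epithelial cells were treated or whether the CM still held 4-OHT, so an effect of 4-OHT and an effect of RAS-dependent secretion cannot be told apart. The p values measure the spread between these libraries, which may be technical.

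Basement membranes are thin sheets of matrix under epithelia and endothelia and around muscle and fat cells. Collagen IV, built as a triple helix from sets of its chains, forms one network and laminin forms another, and nidogens bind both. Collagens XV and XVIII carry glycosaminoglycan chains, lie at the face of the sheet towards the interstitium and release the fragments restin and endostatin from their C-terminal ends. In the alveolus the epithelial and endothelial basement membranes are fused over much of the surface. Fibroblasts supply part of their collagen IV and nidogen, and in lung fibrosis the sheet is broken and remade.

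The collagen IV genes lie as 3 head-to-head pairs, in which 2 genes run in opposite directions from a common stretch of DNA. By the RefSeq starts on GRCh38.p14, *COL4A1* and *COL4A2* on chromosome 13 start 127 bases apart, *COL4A4* and *COL4A3* on chromosome 2 start 419 bases apart, and *COL4A6* and *COL4A5* on chromosome X start 380 bases apart. *COL4A6* has a second listed start that lies 1416 bases from the *COL4A5* start. The windows below cover 250 bases before and 50 after a start, each read along its own gene, and are shown because they hold listed starts of the pairs and the DNA beside them (the *COL4A4* start lies outside the *COL4A3* window). The windows of *COL4A1* and *COL4A2* share 226 bases, those of *COL4A5* and the first *COL4A6* start 121, those of *COL4A3* and *COL4A4* 82, and the window of the second *COL4A6* start shares 0 with that of *COL4A5*. Capitals mark matches to CCAAT (the CCAAT box), GGGCGG (the GC box) or TATAAA (the TATA box) on either strand.
*COL4A2*, chr13:110307034-110307333, plus strand, with the *COL4A1* start at base 124: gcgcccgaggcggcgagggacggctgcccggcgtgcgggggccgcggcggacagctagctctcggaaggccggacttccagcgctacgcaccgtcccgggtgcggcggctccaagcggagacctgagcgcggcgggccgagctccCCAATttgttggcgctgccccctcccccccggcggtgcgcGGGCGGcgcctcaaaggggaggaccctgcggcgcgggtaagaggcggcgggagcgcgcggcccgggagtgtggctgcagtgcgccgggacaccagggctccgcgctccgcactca
*COL4A3*, chr2:227164374-227164673, plus strand: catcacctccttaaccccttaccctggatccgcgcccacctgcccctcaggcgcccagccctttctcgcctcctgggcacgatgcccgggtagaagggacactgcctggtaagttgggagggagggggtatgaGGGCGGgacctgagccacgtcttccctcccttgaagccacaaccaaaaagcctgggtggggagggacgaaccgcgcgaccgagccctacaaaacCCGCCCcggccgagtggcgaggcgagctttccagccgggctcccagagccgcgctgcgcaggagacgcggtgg
*COL4A5*, chrX:108439588-108439887, plus strand: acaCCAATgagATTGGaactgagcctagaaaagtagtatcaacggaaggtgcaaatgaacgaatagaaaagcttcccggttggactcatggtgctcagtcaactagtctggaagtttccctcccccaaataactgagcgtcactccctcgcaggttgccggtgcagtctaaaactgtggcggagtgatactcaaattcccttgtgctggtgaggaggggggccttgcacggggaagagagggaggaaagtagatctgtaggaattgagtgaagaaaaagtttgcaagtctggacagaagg
*COL4A6* first start, chrX:108439409-108439708, minus strand: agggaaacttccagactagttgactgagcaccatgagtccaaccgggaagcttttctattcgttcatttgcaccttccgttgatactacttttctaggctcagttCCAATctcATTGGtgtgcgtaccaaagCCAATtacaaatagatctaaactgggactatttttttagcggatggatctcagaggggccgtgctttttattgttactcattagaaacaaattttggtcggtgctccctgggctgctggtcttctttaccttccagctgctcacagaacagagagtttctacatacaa
*COL4A6* second start, chrX:108438373-108438672, minus strand: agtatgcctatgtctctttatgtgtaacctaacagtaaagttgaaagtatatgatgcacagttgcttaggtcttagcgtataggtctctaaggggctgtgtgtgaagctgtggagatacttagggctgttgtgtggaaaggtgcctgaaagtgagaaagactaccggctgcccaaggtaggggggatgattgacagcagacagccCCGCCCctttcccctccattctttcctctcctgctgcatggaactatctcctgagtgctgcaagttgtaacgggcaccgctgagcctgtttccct

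The *COL4A2* window, which includes the *COL4A1* start, held 77.7% G and C, 1 CCAAT match and 1 GC box, and no TATA match. The overlapping *COL4A1* window had 76.7% G and C, 1 CCAAT match and 2 GC boxes. The *COL4A5* window held 49.3% G and C and 2 CCAAT matches and no GC box, and the overlapping *COL4A6* window had 43.7% G and C and 3 CCAAT matches. The *COL4A3* window, at 67.7% G and C, had 2 GC boxes and no CCAAT match. Across all 35116 promoter windows of the same length, 34.6% held CCAAT, 44.95% held the GC box and 11.5% held the TATA letters. A match is a description of the letters in the window.

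Levels were compared between genes in CPM per kilobase of the canonical GENCODE transcript, where CPM is the read count per 1000000 reads of TMM-normalized library size, and *COL4A2* and *COL4A1* stood highest. Over the 6 libraries *COL4A2* was at 360 ± 15.4 CPM per kilobase (SD, n = 6) and *COL4A1* at 286 ± 7.76, and the ranges of the 2 genes did not overlap. *NID2* (93.0 ± 3.76) and *NID1* (89.3 ± 5.04) followed with overlapping ranges. *COL18A1* was at 59.4 ± 4.24, above *COL4A5* at 43.8 ± 3.64 and *COL15A1* at 36.7 ± 3.28, which overlapped each other, and *COL4A6* was at 19.1 ± 2.04. *COL4A4* and *COL4A3* were near the limit of detection, at 0.0462 ± 0.0135 and 0.0138 ± 0.00743 CPM per kilobase. With the merged exon length of the count table in place of the canonical transcript, the order changed within the first pair, where *COL4A1* (127 ± 3.45) and *COL4A2* (120.1 ± 5.16) overlapped, within the nidogens, and between *COL15A1* and *COL4A5*.

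**Figure D1:**
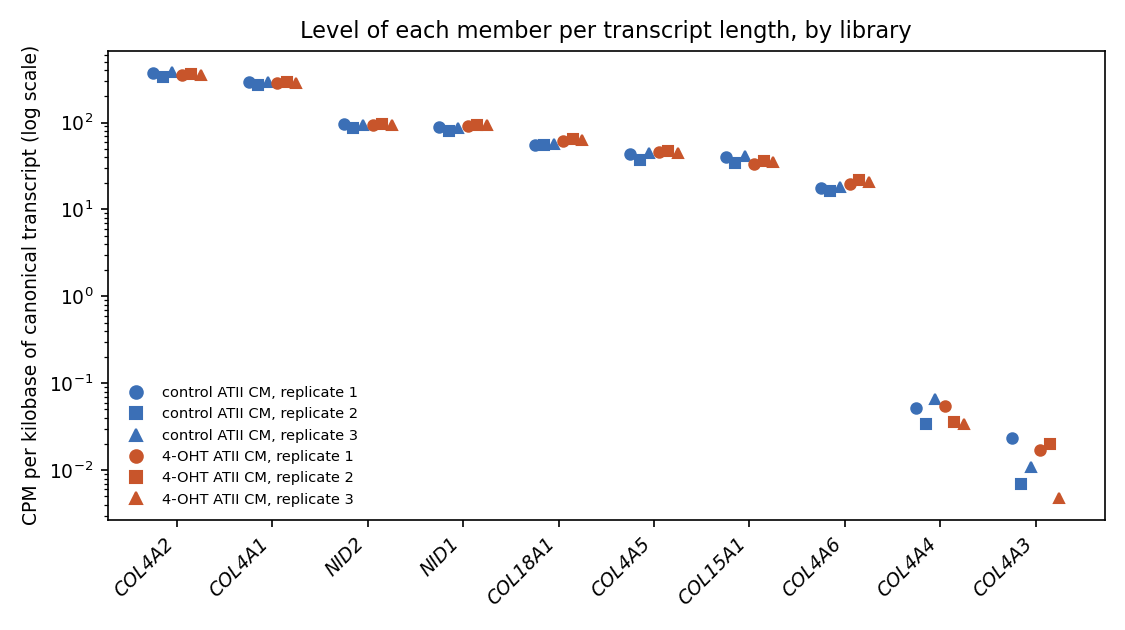
Level of the 10 genes in each library, as CPM per kilobase of canonical transcript on a log axis (blue, control ATII CM; orange, 4-OHT ATII CM; marker shape, replicate number). *COL4A2* and *COL4A1* lead at 360 and 286 CPM per kilobase on average, 8 genes lie above 10, and *COL4A4* and *COL4A3* lie below 0.1.

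On the CPM scale, the 6 collagen IV genes summed to 4575 ± 248 CPM in the controls (SD, n = 3) and 4627 ± 95.2 CPM (n = 3) in 4-OHT ATII CM. *COL4A1* and *COL4A2* made up 68.8% of the summed CPM of the 10 genes, the nidogens 15.9%, *COL15A1* and *COL18A1* together 8.43%, and *COL4A5* with *COL4A6* 6.79%. The sums of the major pair were nearly equal, 4187 ± 214 CPM in the controls and 4187 ± 80.4 CPM in 4-OHT ATII CM.

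Library totals ranged from 17691849 to 26389449 counts. The library with the fewest, control ATII CM replicate 2, stood apart from the rest on the second principal component (22.5% of the variance). In that library the genes with over 5000 bases of merged exons, as all 10 genes here have, had a median log2 deviation of -0.03 from the mean over libraries, against 0.0004 to 0.012 in the other 5. It gave the lowest CPM of all 6 libraries for 6 of the 8 genes above 10 CPM. The part of this library in the results was not tested beyond leaving it out. Values without it are given where the call or direction changed, for the 10 genes and for genes named from the related lists below.

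Differentially expressed genes (DEGs) are those with an adjusted p below 0.05 from edgeR's quasi-likelihood test over all genes. The cells carried the fibroblast markers *COL1A1*, *COL1A2*, *COL3A1*, *VIM*, *PDGFRA*, *PDGFRB*, *THY1*, *DCN* and *LUM*, whose summed level was 41020.4 to 44535 CPM in the controls and 42888 to 44629 CPM in 4-OHT ATII CM, and 5 of the 9 were DEGs (*COL3A1*, *PDGFRA*, *DCN* and *LUM* upregulated, *VIM* downregulated). Epithelial markers summed to 91.2 to 97.0 CPM and 88.7 to 95.2 CPM, nearly all of it the keratins *KRT8*, *KRT18* and *KRT19*, with *NKX2-1* at 0 and *CDH1* at 4 counts over all libraries. Of the endothelial markers, *PECAM1* and *CDH5* were at 0 in all libraries. The endothelial sum of 121 to 138 CPM and 163 to 172 CPM was almost wholly *TEK*, an angiopoietin receptor. *TEK* was an upregulated DEG (log2 fold change 0.37, adjusted p = 0.000162 from edgeR). Smooth muscle and pericyte markers summed to 218 to 222 CPM and 193 to 194 CPM, with *MYH11* at 2 counts over all libraries, *RGS5* upregulated and *CSPG4* downregulated. The part of these marker changes in the results was not tested, and in bulk RNA fewer cells of a kind and less RNA per cell cannot be told apart.

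Of the 10 genes, 2 were DEGs, *COL4A6* and *COL18A1*, and both were upregulated in 4-OHT ATII CM. None was downregulated, also with DESeq2 and limma-voom. Among all 19072 genes tested, 2.95% were upregulated and 2.76% downregulated, 5.72% in all. Without adjustment, 5 of the 10 had a p below 0.05, as had 3306 of all 19072 genes tested, and *COL15A1* alone of the 5 had a log2 fold change below 0. For *COL4A5*, *COL4A6*, *COL18A1* and *NID1* all 3 libraries of 4-OHT ATII CM lay above all 3 of control ATII CM, which was so for 11.7% of all genes tested, and for none of the 10 did they all lie below, against 10.4%. In all, the groups did not overlap for 22.1% of genes. The median log2 fold change of the 10 genes was 0.035, and that of all genes tested was -0.0020.

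**Figure D2:**
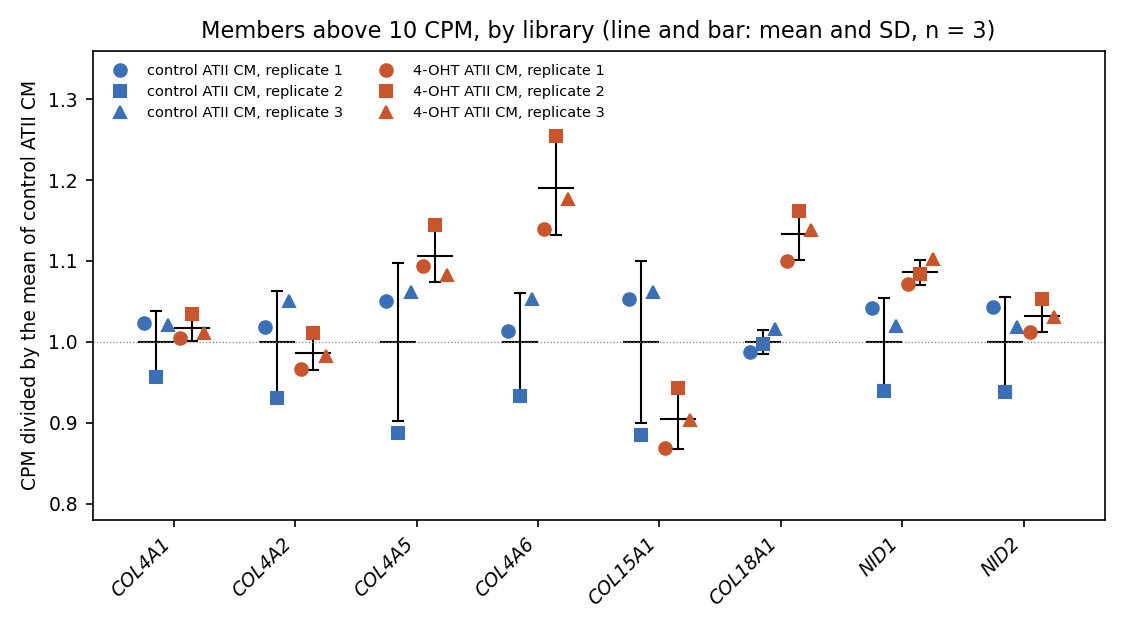
CPM of the 8 genes above 10 CPM in each library, divided by the mean of control ATII CM, with the mean and SD of each group (n = 3). The 4-OHT ATII CM libraries lie wholly above control ATII CM for *COL4A5*, *COL4A6*, *COL18A1* and *NID1*, and control ATII CM replicate 2 (blue square) is the lowest of the 6 libraries for 6 of the 8 genes.

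*COL4A1* (ENSG00000187498, chromosome 13 of GRCh38, 110148963 to 110307233, minus strand) and *COL4A2* (ENSG00000134871, chromosome 13, 110305812 to 110513209, plus strand) encode the chains of the collagen IV found in nearly all basement membranes. *COL4A1* was at 1896, 1773 and 1891 CPM in control replicates 1 to 3 and at 1862, 1917 and 1874 CPM in 4-OHT ATII CM. *COL4A2* was at 2377, 2170.1 and 2452 CPM in the controls and at 2256, 2358 and 2293 CPM in 4-OHT ATII CM. The 2 genes share no exon bases. For both the groups overlapped, and control ATII CM replicate 2 was the lowest library.

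The log2 fold change of *COL4A1* was 0.02 (standard error 0.029, 95% interval -0.039 to 0.087, or 0.974-fold to 1.06-fold, adjusted p = 0.756 from edgeR). For *COL4A2* it was -0.02 (standard error 0.037, 95% interval -0.097 to 0.059, adjusted p = 0.857). These were the most deeply counted of the 10 genes, with 252822 and 313550 counts over the 6 libraries. Without control ATII CM replicate 2 the log2 fold changes were -0.0068 and -0.069, the latter with an adjusted p of 0.0792, and the sign of *COL4A2* turned to 0.012 without control ATII CM replicate 3.

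*COL4A5* (ENSG00000188153, chromosome X, 108439844 to 108697545, plus strand) encodes a chain that joins the helices of the kidney glomerulus, where its mutation causes Alport syndrome, and that in skin and smooth muscle pairs with the chain of *COL4A6* (ENSG00000197565, chromosome X, 108155607 to 108439497, minus strand). *COL4A5* was at 286, 241 and 289 CPM in the controls and at 297, 311 and 294 CPM in 4-OHT ATII CM. The groups were separate by 5.49 CPM, control ATII CM replicate 2 was the lowest library, and the SD of the controls was 9.75% of their mean, against 2.97% in 4-OHT ATII CM. *COL4A6* was at 118, 109 and 122 CPM in the controls and at 133, 146 and 137 CPM in 4-OHT ATII CM. Here the groups were separate by 10.1 CPM.

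*COL4A6* rose by 18.9% (log2 fold change 0.25, standard error 0.048, 95% interval 0.15 to 0.35, adjusted p = 0.00465 from edgeR), the largest rise among the 8 genes above 10 CPM. It remained a DEG in each alternative, with adjusted p values from 2.61e-08 to 0.0442, the highest without 4-OHT ATII CM replicate 2. *COL4A5* had a smaller log2 fold change, 0.14 (95% interval 0.031 to 0.26, standard error 0.053), and was not a DEG (adjusted p = 0.149). Without control ATII CM replicate 2 its log2 fold change was 0.067 (adjusted p = 0.235). When each library's trend on gene length was removed, an alternative chosen after seeing the data, *COL4A5* was a DEG (log2 fold change 0.17, adjusted p = 0.0138).

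*COL4A3* (ENSG00000169031, chromosome 2, 227164565 to 227314792, plus strand) and *COL4A4* (ENSG00000081052, chromosome 2, 227002711 to 227164453, minus strand) encode the other chains of the glomerular and alveolar network. They passed the count filter with 15 and 62 counts over all libraries. *COL4A3* had 4, 1 and 2 counts in the controls and 3, 4 and 1 in 4-OHT ATII CM. *COL4A4* had 11, 6 and 15 counts in the controls and 12, 9 and 9 in 4-OHT ATII CM. At this depth a difference was not detectable for either. The interval of the *COL4A4* log2 fold change reached from -1.14 to 0.52. Of the *COL4A3* exon bases, 1.32% are shared with *MFF-DT* on the opposite strand, which itself had 109 counts.

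**Figure D3:**
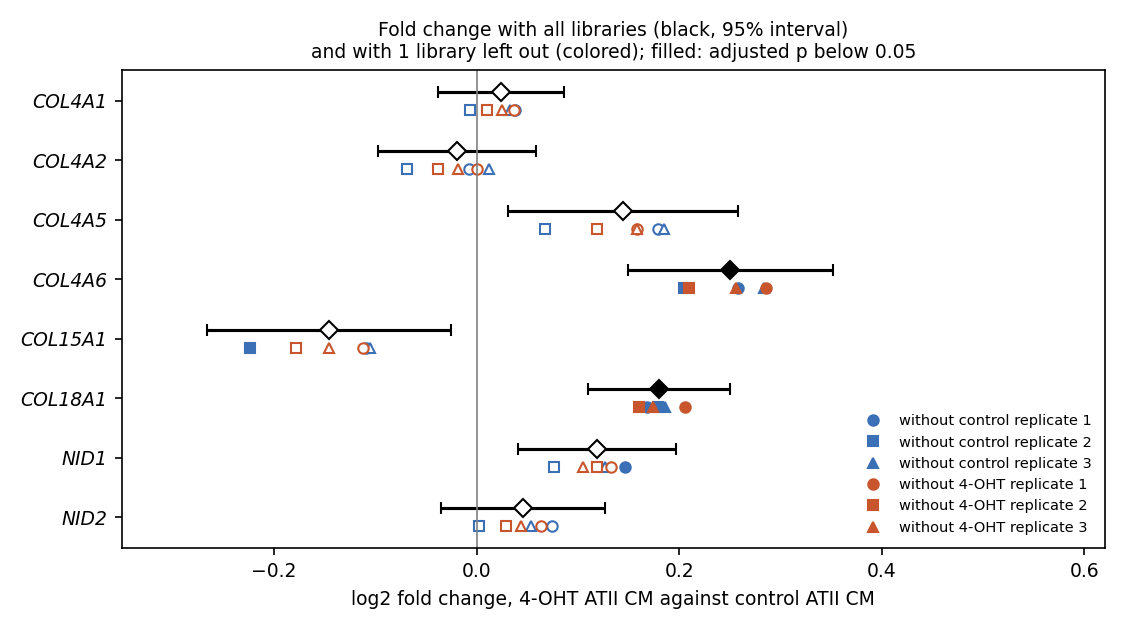
Log2 fold change of the 8 genes above 10 CPM with all libraries (black diamonds with the 95% interval) and with each library left out (colored markers, named by the library left out; filled, adjusted p below 0.05). *COL4A6* and *COL18A1* are filled throughout, *COL15A1* is filled without control ATII CM replicate 2, and *NID1* without control ATII CM replicate 1.

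*COL18A1* (ENSG00000182871, chromosome 21, 45405137 to 45513720, plus strand) and *COL15A1* (ENSG00000204291, chromosome 9, 98943179 to 99070792, plus strand) encode the 2 multiplexins, collagens whose helix is broken many times. *COL18A1* was at 297, 300.4 and 306 CPM in the controls and at 331, 350.0 and 343 CPM in 4-OHT ATII CM. The lowest 4-OHT ATII CM library lay 25.2 CPM above the highest control, and control ATII CM replicate 2 did not stand out for this gene. *COL15A1* was at 212, 178 and 214 CPM in the controls and at 175, 189.7 and 181 CPM in 4-OHT ATII CM. Controls 1 and 3 lay above all of 4-OHT ATII CM, while control 2 lay among them.

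*COL18A1* rose by 13.3% (log2 fold change 0.18, standard error 0.033, 95% interval 0.11 to 0.25, adjusted p = 0.00348 from edgeR) and was a DEG in each alternative (adjusted p from 1.34e-05 to 0.0349). For *COL15A1* the log2 fold change was -0.15 (95% interval -0.27 to -0.025, standard error 0.057) and the gene was not a DEG (adjusted p = 0.176). Without control ATII CM replicate 2 *COL15A1* was a downregulated DEG with a log2 fold change of -0.22 (adjusted p = 0.000344). Downregulated DEGs over all genes then went from 527 to 834. Of the *COL18A1* exon bases, 16.4% are shared with *SLC19A1* on the opposite strand. That gene had 2709 counts over all libraries, against 43633 for *COL18A1*. The count table sums both starts of *COL18A1*, which lie far apart, so its long and short forms were not told apart.

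*NID1* (ENSG00000116962, chromosome 1, 235975830 to 236065162, minus strand) and *NID2* (ENSG00000087303, chromosome 14, 52004803 to 52069228, minus strand) encode the nidogens, the rod-like linkers between laminin and collagen IV. *NID1* was at 516, 466 and 505 CPM in the controls and at 531, 537 and 546 CPM in 4-OHT ATII CM. *NID2* was at 465, 418 and 454 CPM in the controls and at 451, 469 and 459 CPM in 4-OHT ATII CM. The groups were separate for *NID1* and overlapped for *NID2*.

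*NID1*, with a log2 fold change of 0.12 (95% interval 0.040 to 0.20, standard error 0.037, adjusted p = 0.0769 from edgeR), lay near the threshold. It was an upregulated DEG with limma-voom (adjusted p = 0.0451) and without control ATII CM replicate 1 (log2 fold change 0.15, adjusted p = 0.0412), and its log2 fold change was 0.076 without control ATII CM replicate 2 (adjusted p = 0.0920). The log2 fold change of *NID2* was 0.045 (95% interval -0.036 to 0.13, standard error 0.038, adjusted p = 0.609), and 0.0020 without control ATII CM replicate 2. Exons of *NID2* share 1915 bases, 30.0% of their length, with *RTRAF* on the opposite strand, and the sources used here do not state whether the counting used strand.

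The partners of each pair were compared through the log2 ratio of their counts within a library, which needs no library size. The difference between groups was tested with an exact two-sided permutation test, which for 3 libraries against 3 cannot give a p below 0.1. The *COL4A1* to *COL4A2* ratio was 0.798, 0.817 and 0.771 in the controls and 0.825, 0.813 and 0.818 in 4-OHT ATII CM. Its SD over the 6 libraries was 0.036 on the log2 scale, and the groups overlapped (difference 0.042, exact permutation p = 0.2, adjusted over the 4 pairs 0.267). Leaving out control replicate 3 gave a difference of 0.020, and leaving out control replicate 2 gave 0.062. The *COL4A5* to *COL4A6* ratio was 2.42, 2.22 and 2.36 in the controls and 2.24, 2.13 and 2.15 in 4-OHT ATII CM. Control replicate 2 lay between the 4-OHT ATII CM libraries, and the difference of -0.10 on the log2 scale had an exact permutation p of 0.2 (adjusted 0.267). The *COL4A3* to *COL4A4* ratio rests on counts of 15 or fewer a library and ranged from 0.158 to 0.474 (difference 0.17, exact permutation p = 0.8, adjusted 0.8).

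The nidogens, which are on different chromosomes, stood beside these pairs. The *NID1* to *NID2* ratio was 1.11 in each of the 3 control libraries and 1.18, 1.14 and 1.19 in 4-OHT ATII CM, with no overlap. The difference was 0.073 on the log2 scale with an exact permutation p of 0.1, the smallest possible, and 0.267 after adjustment. It ranged from 0.062 to 0.089 with each library left out.

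A pair of ratios was added after the values had been seen. *COL18A1* to *COL15A1* was 1.40, 1.69 and 1.43 in the controls and 1.90, 1.85 and 1.89 in 4-OHT ATII CM, a log2 difference of 0.32 that ranged from 0.27 to 0.40 with each library left out. The summed counts of *COL4A5* and *COL4A6* relative to those of *COL4A1* and *COL4A2* were 0.0944, 0.0888 and 0.0947 in the controls and 0.104, 0.107 and 0.103 in 4-OHT ATII CM, a log2 difference of 0.18 (0.15 to 0.20 with each library left out). In both, all 3 libraries of 4-OHT ATII CM lay above all 3 controls, and the exact permutation p was 0.1, or 0.2 adjusted over all 6 ratios.

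**Figure D4:**
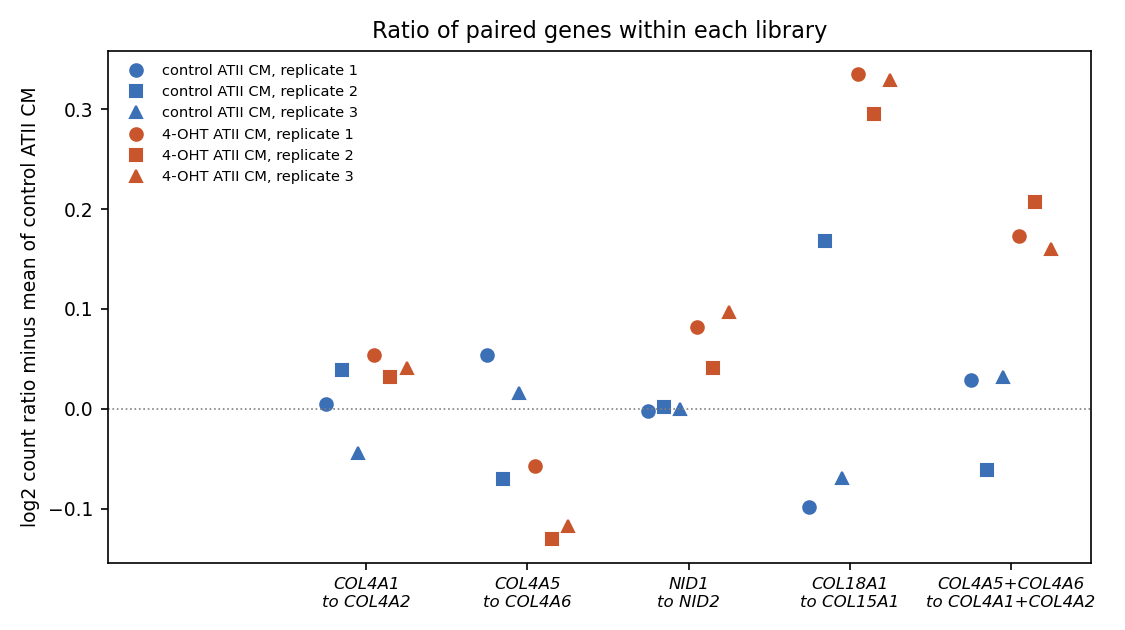
Log2 ratio of the counts of paired genes in each library, less the mean of control ATII CM (blue, control ATII CM; orange, 4-OHT ATII CM; *COL4A3* to *COL4A4* is left out for its low counts). The groups overlap for the *COL4A1* to *COL4A2* and *COL4A5* to *COL4A6* ratios and are separate for the other 3.

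Genes with the most similar course over the 6 libraries were found by the SD of the log2 ratio of their CPM to that of a collagen or nidogen gene, over 9201 other genes with a mean of at least 10 CPM. For *COL4A1* the nearest were *TGOLN2*, *MSANTD7* and *GSK3B* (SD 0.013, 0.013 and 0.016), and its partner *COL4A2* ranked 320 (0.036), where the median gene had 0.083. For *COL4A6* they were *STON1*, *NCKAP5* and the laminin gene *LAMB1* (0.015, 0.023 and 0.030), and *COL4A5* ranked 170 (0.073, median gene 0.17). For *COL18A1* they were *YPEL5*, *CASP4* and *ASS1* (0.0077, 0.011 and 0.013), and *COL15A1* ranked 8373 (0.20, median gene 0.12). For *NID1* they were *THBS1*, *CPT1C* and *TTC14* (0.016, 0.017 and 0.018), and *NID2* ranked 245 (0.044, median gene 0.11). These are descriptions over 6 libraries that share their 2 groups.

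Laminins form the other network of the basement membrane. Of 12 laminin chain genes 11 were tested, of which 1 rose and 1 fell as a DEG, at a median of -0.063 for the log2 fold change. *LAMB1*, the laminin β1 chain, rose from 1818 ± 127 to 2155 ± 62.5 CPM (mean ± SD of 3 libraries, here and for the genes that follow), with an edgeR log2 fold change of 0.24 (adjusted p = 0.00153, standard error 0.040). *LAMC1*, the γ chain that binds nidogen, was at 957 ± 91.8 CPM and 916 ± 4.90 CPM (log2 fold change -0.063, adjusted p = 0.576). *LAMA1* fell from 16.7 ± 2.12 CPM to 13.4 ± 0.237 CPM (adjusted p = 0.0424), a call that was lost in 7 of its 14 alternatives, among them leaving out any library but control ATII CM replicate 2. Without that library, when downregulated DEGs over all genes went from 527 to 834, 4 laminin genes were downregulated DEGs, *LAMC1* one of them (log2 fold change -0.14, adjusted p = 0.000589). The log2 fold change of *LAMC1* was -0.019 without control replicate 1 and -0.034 without control replicate 3.

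Of 17 other basement membrane genes 12 were tested, with 1 upregulated and 1 downregulated DEG and a median log2 fold change of -0.049. *HSPG2*, which encodes the heparan sulfate proteoglycan perlecan, was at 264, 187 and 259 CPM in the controls and at 177, 172 and 172 CPM in 4-OHT ATII CM. It fell by 0.45 on the log2 scale (standard error 0.087, adjusted p = 0.00496 from edgeR), and by 0.59 without control ATII CM replicate 2, which lay nearer to 4-OHT ATII CM than to the other controls. With DESeq2 it was not a DEG (adjusted p = 0.0529). *FBLN1*, the gene of fibulin-1, which binds nidogen and laminin, rose from 477 ± 4.46 CPM to 558 ± 6.92 CPM (log2 fold change 0.23, adjusted p = 0.000216 from edgeR) and was a DEG in every alternative. *SPARC*, a matricellular protein that binds collagen IV, was at 3538 ± 44.8 CPM and 3486 ± 40.4 CPM (log2 fold change -0.021, adjusted p = 0.711, from -0.037 without control replicate 3 to -0.0072 without 4-OHT replicate 1).

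All 19 genes of collagen hydroxylation, folding, export and cross-linking were tested, 1 of which was a DEG, and their median log2 fold change was -0.028. *LOXL2*, a lysyl oxidase that cross-links collagen IV, fell from 1005 ± 3.63 CPM to 937 ± 11.6 CPM (log2 fold change -0.10, adjusted p = 0.0356 from edgeR), and the call was lost in 7 of its 14 alternatives, among them leaving out any library but control ATII CM replicate 2. *PXDN*, the peroxidasin that forms sulfilimine bonds between collagen IV molecules, was at 2017 ± 88.4 CPM and 1957 ± 23.4 CPM (log2 fold change -0.043, adjusted p = 0.529), and without control ATII CM replicate 2 it was a downregulated DEG (-0.078, adjusted p = 0.0254). *SERPINH1*, the collagen chaperone HSP47, was at 1740.3 ± 50.1 CPM and 1821 ± 20.4 CPM (log2 fold change 0.066, adjusted p = 0.213), and without the same library it was an upregulated DEG (0.089, adjusted p = 0.0142).

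Of 11 basement membrane receptor genes 10 were tested, at a median of -0.042 for the log2 fold change. Of these 2 were downregulated DEGs, as were 2.76% of all genes tested, and none was upregulated. Without control ATII CM replicate 2, 3 of them and 834 of all genes were downregulated DEGs. Both DEGs of the fit with all libraries encode integrin α chains of laminin receptors. *ITGA6* fell from 29.3 ± 0.160 CPM to 20.1 ± 1.18 CPM (log2 fold change -0.55, standard error 0.060, adjusted p = 5.16e-05 from edgeR), and *ITGA3* from 252 ± 5.98 CPM to 194 ± 4.58 CPM (log2 fold change -0.38, standard error 0.035, adjusted p = 1.13e-05). Both were DEGs in every alternative. *ITGA1*, the α chain of the collagen IV receptor α1β1, was at 479 ± 22.6 CPM and 502 ± 1.84 CPM (log2 fold change 0.066, adjusted p = 0.355), and was an upregulated DEG when the trend on gene length was removed (0.12, adjusted p = 0.0279). Its log2 fold change was 0.036 when control replicate 2 was left out (adjusted p = 0.562) and 0.10 when control replicate 1 was. Its partner *ITGB1* was at 2673 ± 22.9 CPM and 2794 ± 57.0 CPM (log2 fold change 0.064, adjusted p = 0.164).

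Of 8 protease genes that act on these collagens 6 were tested, with 1 upregulated DEG and a median log2 fold change of 0.061. *MMP2*, the gelatinase that cleaves collagen IV, rose from 1413 ± 24.6 CPM to 1551 ± 6.53 CPM (log2 fold change 0.14, adjusted p = 0.00454 from edgeR). The call was lost when 4-OHT ATII CM replicate 3 was left out (adjusted p = 0.0501). *CTSB*, the cysteine protease cathepsin B, was at 1340.2 ± 32.5 CPM and 1422 ± 31.4 CPM (log2 fold change 0.085, adjusted p = 0.103). It was an upregulated DEG without control ATII CM replicate 2 (0.10, adjusted p = 0.00828), with limma-voom (adjusted p = 0.0389) and without a filter on low counts (adjusted p = 0.0471).

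**Figure D5:**
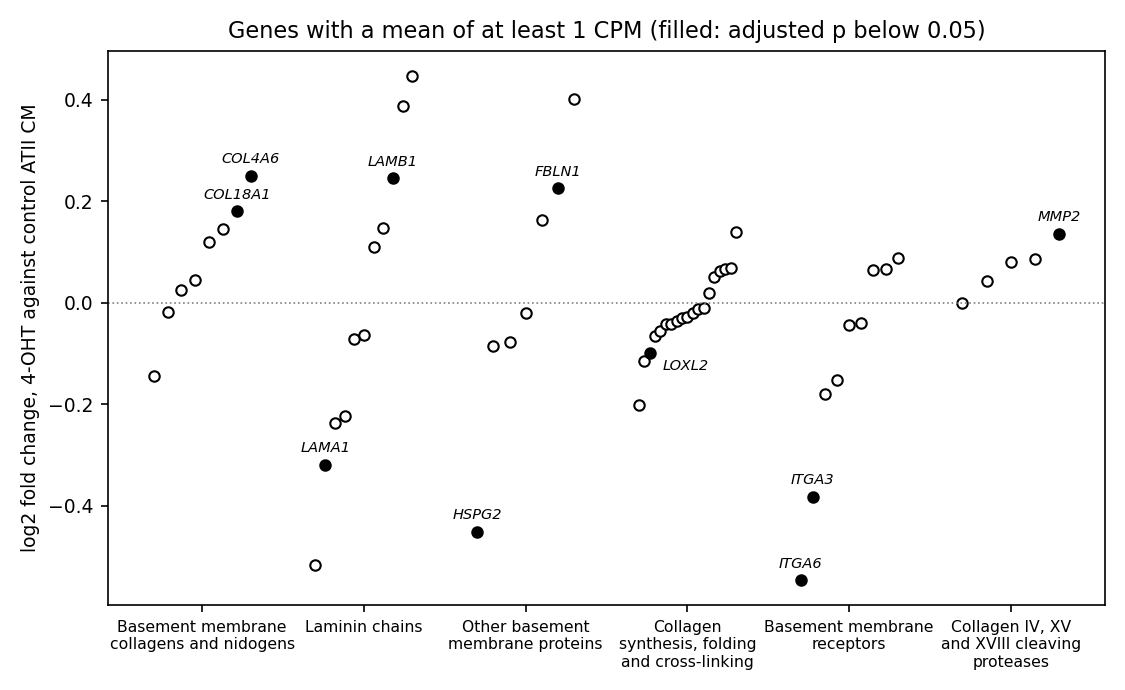
Log2 fold change of the basement membrane collagens and nidogens and of the 5 related gene lists, for genes with a mean of at least 1 CPM (filled, adjusted p below 0.05). *COL4A6* and *COL18A1* are filled and above 0 in the first list, and the lists to the right have 0 to 2 filled genes in each direction, from *ITGA6* at -0.55 to *LAMB1* at 0.24.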

How the data were processed

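RNA-Seq was performed on MRC5 cells in 2 groups of 3 libraries. After trimming (Trim Galore), the authors aligned the reads to GRCh38 (HISAT2 2.1.0), summarized them per gene (featureCounts 1.6.5) and deposited raw counts per gene with the merged exon length of each gene. The annotation release, the use of strand and the treatment of multi-mapping reads are not given in the sources used here. The library totals were 17691849 to 26389449 counts, and the square root of the common dispersion was 4.36%. Counting error adds to this spread and is relatively larger for genes at lower CPM.

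Counts of the 45 identifiers listed on both X and Y were added. Genes with at least 10 counts over the 6 libraries (19072) were tested with edgeR 4.0.16 (R 4.3.3), with TMM normalization, the quasi-likelihood test on group alone and Benjamini-Hochberg adjustment over all genes tested, at a threshold of 0.05. Standard errors were the log2 fold change divided by the root of F. DESeq2 1.42.0, limma-voom (limma 3.58.1), other normalizations and filters, a replicate block and each library left out were alternatives. The fits were also run on simulated counts that held no deviating library and no trend on gene length, and no result here rests on them. Ratios of counts had 0.5 added to each count. Symbols and canonical transcripts came from GENCODE release 44 and promoter windows from RefSeq on GRCh38.p14, in which all 10 genes matched. Named were the 10 genes, of each related list the DEGs and the 2 genes with the highest mean CPM, the 3 genes nearest in course to *COL4A1*, *COL4A6*, *COL18A1* and *NID1*, and genes whose exons overlap them. The members, lists and tests were chosen with earlier results of these data known. No sequences of proteins were used here.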

Additional observations from a re-analysis of the deposited data

How the results depend on the processing

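*COL4A6* and *COL18A1* kept their direction and their call in all 14 alternatives each. Without a filter on low counts 875 genes overall were upregulated and 726 downregulated, and among the 10 genes 4 and 1, with *COL4A5* (log2 fold change 0.15), *NID1* (0.13) and *COL15A1* (-0.14) called. *NID1* was called with limma-voom (0.12). Removing the trend on gene length called *COL4A5* (0.17) and *ITGA1* (0.12) and turned *COL4A2* to 0.039. The cause was not tested.

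With each library left out, upregulated genes numbered 289 to 696 and downregulated genes 244 to 834 (the fewest without 4-OHT replicate 2, the most without control replicate 2), and among the 10 genes 2 to 3 and 0 to 1. The log2 fold change ranged from -0.0068 to 0.038 for *COL4A1*, -0.069 to 0.012 for *COL4A2*, -0.41 to 0.54 for *COL4A3* and -0.54 to -0.072 for *COL4A4*. It ranged from 0.067 to 0.18 for *COL4A5*, -0.22 to -0.11 for *COL15A1* and 0.076 to 0.15 for *NID1*, and the *COL4A3* to *COL4A4* difference from -0.22 to 0.58. The laminin list gave 1 to 2 upregulated and 0 to 4 downregulated genes, the collagen synthesis list 0 to 1 and 0 to 2, and the proteases 0 to 2 upregulated genes.

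Over all genes, DESeq2 gave 420 upregulated and 409 downregulated genes, and limma-voom 580 and 552. In the lists, DESeq2 gave 2 upregulated and 0 downregulated laminin genes and 0 downregulated other basement membrane genes. Limma-voom gave 2 upregulated laminin genes, 2 downregulated collagen synthesis genes and 2 upregulated proteases. Deviations of same-numbered libraries from their group means had correlations of 0.063, 0.026 and 0.039, and each library correlated best with its own number. Whether replicate numbers pair the libraries was not tested. The replicate block gave 502 upregulated and 483 downregulated genes, 2 upregulated and 0 downregulated laminin genes and 0 downregulated collagen synthesis genes, and log2 fold changes of 0.25 for *COL4A6* and 0.18 for *COL18A1*. Counting depth limits *COL4A3* and *COL4A4* alone among the 10 genes.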
